A study of Mus musculus with 2 samples.

Results

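The Sox genes encode transcription factors that share the HMG box, a DNA-binding domain that sits in the minor groove and bends the helix. The 10 members described here were the genes Sox1, Sox2, Sox3, Sox4, Sox5, Sox6, Sox8, Sox9, Sox11 and Sox12, chosen by name from 20660 genes that could be named on the array. They were read by 14 probes and fall into 4 groups by sequence, SoxB1 (Sox1, Sox2, Sox3), SoxC (Sox4, Sox11, Sox12), SoxD (Sox5, Sox6) and SoxE (Sox8, Sox9). The rule that lists them uses no measured value, but the list was made with earlier results of these data known.

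Total RNA of newborn mouse lens (postnatal day 0, C57BL/6 mixed background) was hybridised to 2 Agilent 1-colour arrays of the same slide, 1 for a litter mate labelled wild-type and 1 for lens whose label gives a lens-specific Foxp1 KO. Both samples carry the same treatment text, with the floxed allele (Foxp1-flox/flox) and the Cre driver (Pax6-L-Cre), so the genotype label alone separated the groups, and an effect of where an array lay on the slide cannot be told apart from one of genotype. The labels say nothing on pooling of animals, on the exons removed or on where else the driver acts. With 1 array per genotype, no p-value was possible, and each difference is one between these arrays.

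SoxB1 factors are activators known from the earliest lens, where Sox2 acts with Pax6, and Sox1 is known to be needed for fibre cell elongation and for expression of the gamma-crystallins. SoxC factors are known from neural precursors and young neurons, and Sox11 also from the separation of the lens from the surface ectoderm. SoxD factors carry no activation domain of their own and work beside SoxE factors in cartilage, while Sox8 and Sox9 are further known from neural crest, glia and retinal progenitors.

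Because the gamma-crystallin genes are the readout of Sox1 best known in lens, the last 90 bases before the start site of each are shown from RefSeq (GRCm38.p6), 5′ to 3′ on the gene's strand. The capitals mark TTTGTG, which reads CACAAA on the opposite strand and holds the ACAA core of Sox sites. This word was chosen after the sequences were seen.
Cryga, chr1:65103364-65103453, minus strand: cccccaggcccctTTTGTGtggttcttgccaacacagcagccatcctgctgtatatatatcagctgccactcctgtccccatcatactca
Crygb, chr1:65082291-65082380, minus strand: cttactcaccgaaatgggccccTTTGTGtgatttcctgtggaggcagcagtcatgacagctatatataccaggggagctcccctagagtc
Crygc, chr1:65073533-65073622, minus strand: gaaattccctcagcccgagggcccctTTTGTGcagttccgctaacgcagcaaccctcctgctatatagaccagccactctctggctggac
Crygd, chr1:65063441-65063530, minus strand: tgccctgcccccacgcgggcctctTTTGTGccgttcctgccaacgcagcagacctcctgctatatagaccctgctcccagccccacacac
Cryge, chr1:65051164-65051253, minus strand: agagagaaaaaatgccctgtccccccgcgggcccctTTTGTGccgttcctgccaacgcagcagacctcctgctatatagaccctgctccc
Crygf, chr1:65926432-65926521, plus strand: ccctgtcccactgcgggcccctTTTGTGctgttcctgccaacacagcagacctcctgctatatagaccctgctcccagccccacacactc

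The word was found in 6 of these 6 windows, with its first base between 77 and 54 bases before the start site. On either strand it lies in 17.7% of 32851 RefSeq promoter windows of 300 bases (250 before and 50 after a start site). The count in the 6 windows was fixed by the choice of word, so it cannot be compared with this share. A match in letters is a description and not a site. The RefSeq table held promoter windows for 8 of the 10 Sox genes, 13 windows in all (6 of them of Sox6), and Sox3 and Sox9 had none.

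These 13 windows were searched on both strands for 4 forkhead words, which were TGTTTAC as well as TATTTAC followed by TATTTAT together with TATTTGT, because the deleted gene encodes a forkhead factor. A word was present in 2 windows, 1 of Sox12 and 1 of Sox6, against 14.2% of all promoter windows. Sox12 is shown with TGTTTAC in capitals. A second search used the 8 Sox words of the form NNCAANG in which each N stands for A or T, and these lie in 24.6% of all windows. They were present in 7 of the 13 windows, all 6 of Sox6 and that of Sox2, and so in 2 of the 8 genes. The same words were searched in the promoter windows of the gamma-crystallins. There they were present for Crygb and Crygd and absent for Cryga, Crygc, Cryge and Crygf. Sox2 is shown with TACAAAG in capitals, 207 bases before its start site.
Sox12, chr2:152398122-152398171, minus strand: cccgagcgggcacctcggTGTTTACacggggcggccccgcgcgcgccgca
Sox2, chr3:34649770-34649819, plus strand: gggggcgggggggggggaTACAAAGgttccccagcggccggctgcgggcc

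On each array 59305 spots stood for genes, of which 67.5% (control) and 56.9% (knockout) were well above background. Signals below are processed signals, the spot brightness after background subtraction. Differences are knockout minus control on the log2 scale, after each array's 75th percentile (281 and 279 intensity units) was subtracted. Foxp1 read lower with all 3 probes, at -1.82, -1.84 and -1.33. The defining lens genes, among them the crystallins and the beaded filament genes Bfsp1 and Bfsp2, were above background on both arrays for 12 of 12 genes. Their median difference was -0.01. Dim signals ran lower on the knockout array. A spike-in RNA that read 82.3 on the control array differed by -1.12, one that read 54.8 was not well above background in knockout lens and was at least 4.42-fold lower, and the 5 above 1000 lay between -0.03 and 0.01. Genes below the median signal had a median difference of -0.17 and those above it 0.08.

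A gene counted as measured when at least 1 probe was well above background on both arrays, which held for 9 of the 10 Sox genes and for 14254 genes in all. None of the 9 (0 genes) was at least 2-fold higher or lower. Among all measured genes 1% were at least 2-fold higher and 5.89% were at least 2-fold lower, or 143 and 839 genes. That split depended on the scaling, with 8767 and 100 genes under array medians, 774 and 233 under quantile normalization and 446 and 273 under loess. Of the 9 Sox genes 7 lay above 0 and 2 below, against 50.7% of all measured genes above 0. Their median difference was 0.27, beside 0.00434 for all genes. Of the 10 Sox genes outside the list 7 were measured, 2 above and 5 below 0, with a median of -0.41 (0.38 after loess). Under the reported scaling the lean above 0 thus held for the listed members and not for the Sox genes left out. Array medians shifted every gene up by 1.08, so that 9 of 9 Sox genes lay above 0. Relative to the median of all genes, 7 of the 9 lay above it as reported and in 7 of the 9 other settings. The count was 8 of 10 where dim probes were not filtered out and 4 of 6 over brighter probes only.

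**Figure D1:**
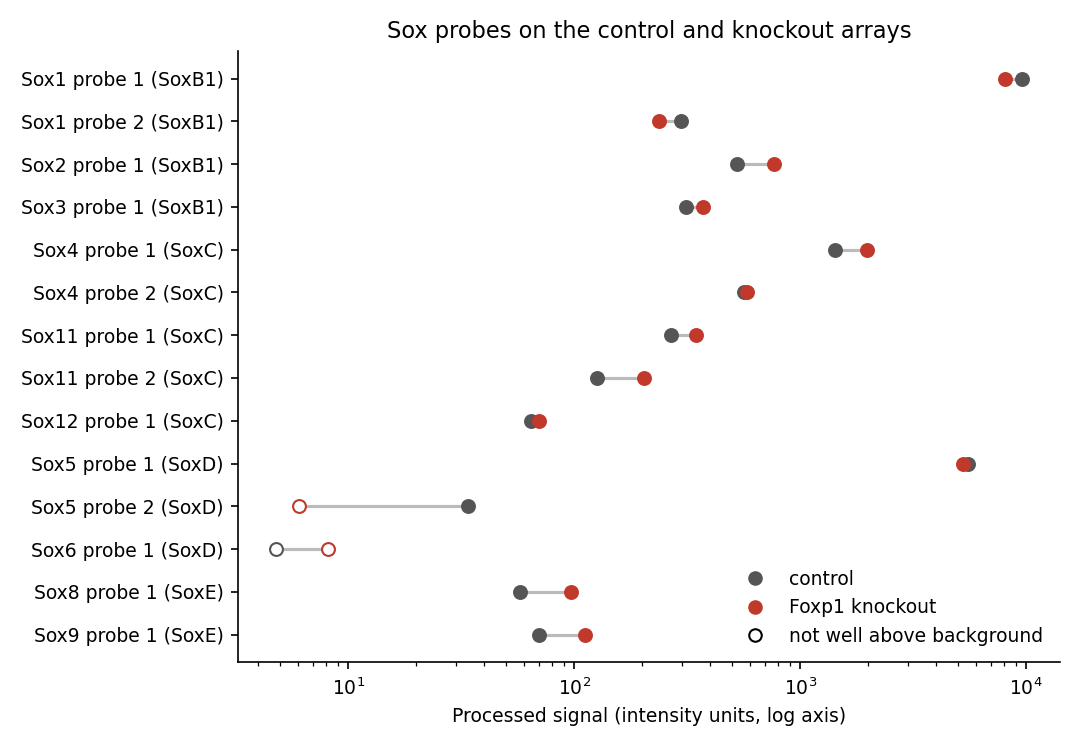
Processed signal of each of the 14 Sox probes (log axis, intensity units) on the control array (grey) and the knockout array (red), with open circles for spots not well above background. The SoxC and SoxE probes and those of Sox2 and Sox3 have the knockout circle to the right, while both Sox1 probes and both Sox5 probes have it to the left.

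The SoxB1 genes differed in direction among themselves. Sox1 was read by 2 probes, with signals of 9631 and 296 in control and 8099 and 237 in knockout lens. Both probes were lower in knockout lens, with differences of -0.24 and -0.31. The mean of -0.27 is a 1.21-fold lower signal. The SD of a single spot difference at these signals, taken from probes printed at least 5 times, was 0.08 and 0.12, and the scanner software's own error of the difference was 0.20 and 0.21. The difference is thus above the former and close to the latter. Of all measured genes 24.1% had a difference as low or lower. Among the brighter measured genes (7127, those not under the median signal), 94.2% had a difference at or above that of Sox1. Its sign was negative under every setting other than array medians (0.81).

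Sox2, which maintains progenitor states and acts with Pax6 in lens induction, read 527 in control and 765 in knockout lens with its 1 probe. The knockout signal was 1.46-fold higher, a difference of 0.55 against a spot SD of 0.12 and a software error of 0.20. Of all measured genes 4.57% had a difference as large or larger. Sox3, also a factor of neural and lens progenitors, read 312 and 371, a difference of 0.26 that is 1.20-fold. That difference is above the spot SD of 0.12 and close to the software error of 0.21, and 16.2% of genes lay as high or higher. Sox1 thus lay below 0 and Sox2 and Sox3 above it, on 1 pair of arrays.

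A noncoding transcript named Sox1ot, looked at after its values were seen, had 2 probes that read 2010.5 and 115 in control and 2180 and 140.02 in knockout lens. Its differences were 0.13 and 0.29, on the other side of 0 from those of Sox1. Both exceed the spot SD (0.08 and 0.16), but the first is within the software error of 0.20 and the second is close to its error of 0.22.

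The SoxC genes were all above 0. Sox4, a factor of precursors and young neurons, had 2 probes that did not give the same size of difference. Its first probe read 1431 in control and 1980.1 in knockout lens, a difference of 0.48. Its second read 565 and 581, a difference of 0.05, which is below the spot SD of 0.12. The mean of 0.27 comes mainly from the first probe. Sox11, the closest relative of Sox4, was higher with both probes. The first read 268 and 346 and the second 126 and 203, differences of 0.38 and 0.70. Their mean of 0.54 is a 1.45-fold higher signal, and 4.79% of all genes had a difference as large or larger. Both differences exceed the spot SD (0.12 and 0.16) and the software error (0.21 and 0.22). Sox12, the third SoxC gene, read 64.1 and 69.7. Its difference of 0.13 is below the spot SD of 0.29 for such dim probes. It moved between 0.01 and 1.22 over the settings, the latter under array medians, which shifted every gene up by 1.08. Relative to the median of all genes it ran from 0.09 to 0.69, so that its value was not resolved here.

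Of the SoxD probes 1 was well above background on both arrays. This probe of Sox5 read 5552 in control and 5236 in knockout lens, a difference of -0.07 that is below the spot SD of 0.08. The other Sox5 probe was dim. It read 33.8 on the control array and was not well above background on the knockout array, at 6.04, where it was at least 2.76-fold lower. This bound sets the control value against 12.1, the dimmest knockout spot that the software flagged as well above background. A spike-in RNA brighter than this probe in control, at 54.8, was not well above background in knockout lens either, with a bound of 4.42-fold. The technical part of the Sox5 bound was not tested, so whether the Sox5 probes disagree was not resolved. Sox6, the partner of Sox5 in cartilage, was not well above background on either array, at 4.77 and 8.10.

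The SoxE genes had the largest differences among the measured members under the reported scaling, on probes that were dim on both arrays. That order was lost after normexp background correction, where Sox2 was highest at 0.56, and for Sox9 with outlier spots kept. Sox8 read 57.4 in control and 97.1 in knockout lens, a 1.70-fold higher signal. The difference of 0.77 exceeds the spot SD of 0.29 and the software error of 0.25, and 2.08% of all genes lay as high or higher. Sox9, a factor of cartilage and retinal progenitors, was printed 10 times on each array, so its own spots give the technical error. After 1 spot was left out as an outlier, the control signal ran from 63.4 to 82.6 with a median of 66.7. The knockout signal ran from 96.9 to 127 with a median of 112. The ranges do not overlap, and 9 of 9 spots were higher on the knockout array.

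The mean signal of Sox9 was 70.1 ± 6.35 (SD over 9 spots) in control and 111 ± 10.3 in knockout lens. The mean difference was 0.68 ± 0.21 (SD over 9 spots, lowest 0.32, highest 0.96), or 1.60-fold, and 2.78% of all genes lay as high or higher. The spread covers spots of 1 RNA sample and not animals. The spot that was left out read 507 in control and 94.8 in knockout lens, and keeping it lowered the Sox9 difference to 0.37. Both SoxE genes lay above 0 under every setting that could be computed. Their size did depend on how dim signals were treated. It was 1.15 for Sox8 and 0.99 for Sox9 after loess, and 0.30 and 0.38 after normexp background correction.

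**Figure D2:**
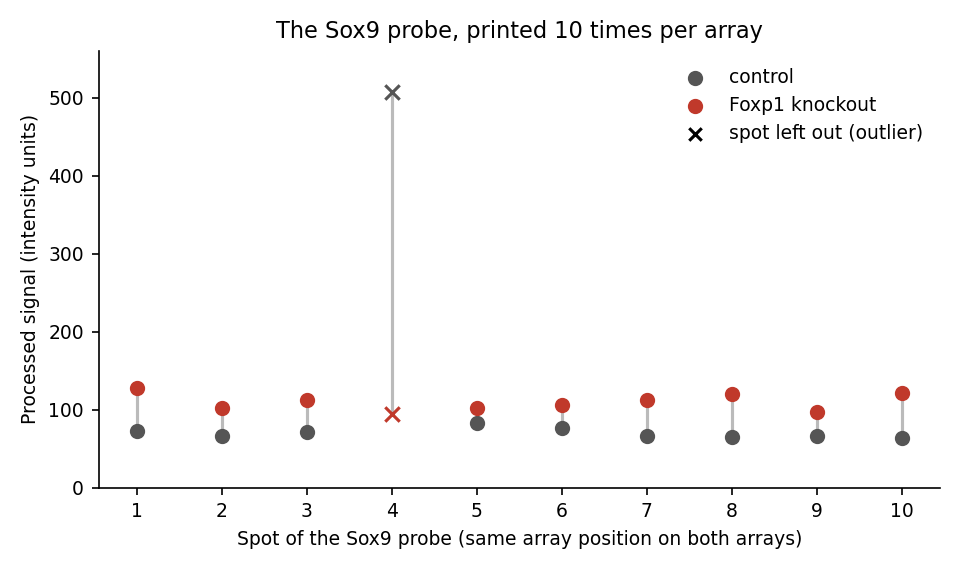
Processed signal (intensity units) of the Sox9 probe at each of its 10 positions on the control array (grey) and the knockout array (red), with crosses for the position left out as an outlier. At the other 9 positions the knockout signal lies above the control signal.

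**Figure D3:**
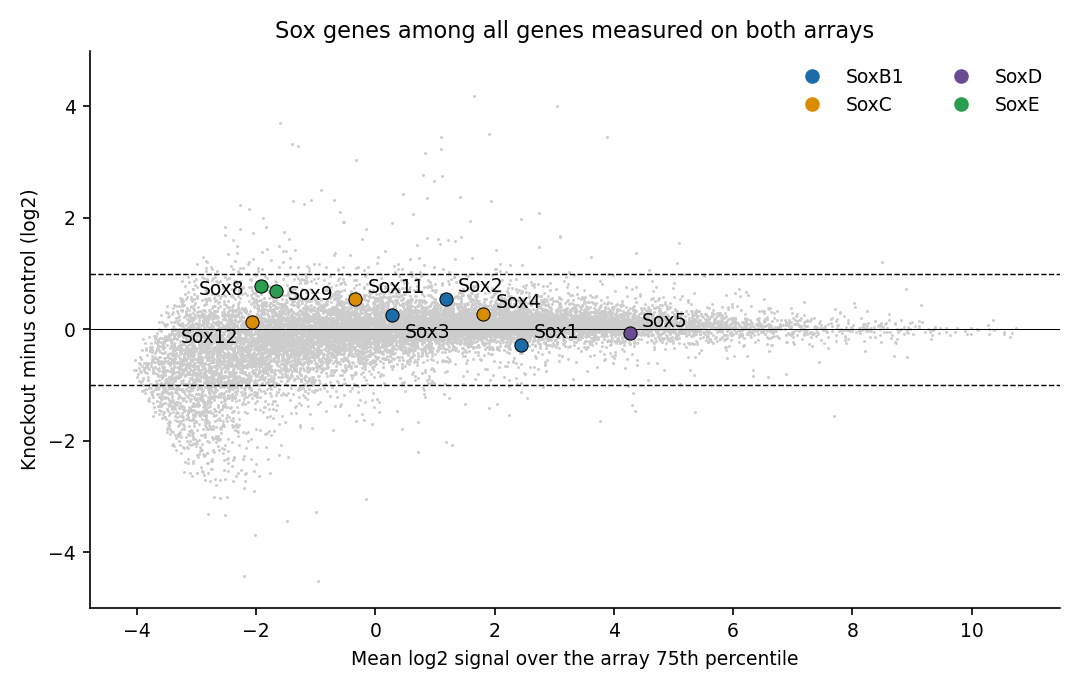
Difference of each of the 14254 measured genes (knockout minus control, log2) against its mean log2 signal relative to the array's 75th percentile, with the 9 measured Sox genes in colour by group and dashed lines at 2-fold. Each Sox gene lies inside the dashed lines, and the cloud of grey genes bends below 0 at low signal, where Sox8, Sox9 and Sox12 lie above 0.

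The 10 Sox genes outside the chosen members, a list that includes the endothelial genes Sox7, Sox17 and Sox18, were mostly dim. Of the 7 measured on both arrays 2 lay above 0 and 5 below, with a median of -0.41, and 0 were at least 2-fold higher. The 1 gene at least 2-fold lower was Sox15, at 61.6 and 19.6, a difference of -1.64 that was short of 2-fold after loess (-0.77), quantile normalization (-0.61), normexp (-0.62) and under array medians (-0.56). Sox13, the remaining SoxD gene, read 944 and 1050 (0.16). Sox7, Sox17 and Sox18 lay at -0.67, -0.42 and -0.41, but at 0.40, 0.75 and 0.38 after loess. The median of this list changed sign to 0.38 after loess and to 0.63 after quantile normalization. Sox14 and Sry were above background on the control array alone, at 85.8 and 42.0, and Sox30 on neither array. In knockout lens Sox14 was at least 7.02-fold lower. A spike-in RNA that read 82.3 in control differed by -1.12, and the technical part of the Sox14 bound was not tested. Sox10, the remaining SoxE gene, read 34.5 and 36.7, a difference of 0.10 at a spot SD of 0.29. That difference was 0.96 after loess.

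Of 8 listed factors that act beside Sox proteins 7 had a named probe and 6 were measured on both arrays, 2 above and 4 below 0 with a median of -0.06. Of the 6, all but Pou3f2 lay between -0.10 and 0.03. Pax6, the partner of Sox2, lay at -0.10 (probes -0.25 and 0.05), Maf, which binds gamma-crystallin promoters, at -0.08 and the eye field factor Six3 at -0.04. The 1 gene past 2-fold was Pou3f2, a neural POU factor, at -1.62, with measured probes at -2.51 and -0.74. It was short of 2-fold after loess (-0.95), quantile normalization (-0.80), normexp (-0.77) and under array medians (-0.54). Pou3f3, another neural POU factor, read 35.0 in control and was not well above background in knockout lens, where it was at least 2.87-fold lower. That control signal is below the 54.8 of the spike-in RNA that was at least 4.42-fold lower.

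The gamma-crystallins whose promoters are shown above, Cryga to Crygf, lay between -0.08 and 0.02, beside the -0.27 of Sox1. Crygd read 472020 in control and 448321 in knockout lens. Crygf read 386704 and 336156 with its brightest probe, and its 2 probes lay at -0.19 and 0.04. Near the top of the scale, as here, differences may be compressed, and the genes are near-identical in sequence, so their probes may not separate them. Cdh2, N-cadherin, which SoxB1 factors are known to activate, lay at 0.27 with both probes (0.27 and 0.28). Over the 7 SoxB1 targets 4 lay above and 3 below 0, 0 passed 2-fold and the median was 0.00432.

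Of the 4 SoxC targets 2 lay above and 2 below 0, with a median of -0.03. That median changed sign to 0.18 after loess, 0.25 after quantile normalization, 0.08 after normexp, 1.05 under array medians and 0.41 over brighter probes only or the brightest probe. Tubb3, the neuronal tubulin, was highest at 0.45, from 976 to 1325. Dcx, a microtubule protein of migrating neurons, had measured probes at -1.25 and 0.52. Map2 had probes at -0.28 and 0.37, and Tead2, a factor of the Hippo pathway, lay at -0.11. The probes of Dcx and Map2 thus opposed each other.

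The cartilage genes that SoxE and SoxD factors are known to drive mostly did not share the direction of Sox8 and Sox9. Of 10 listed, 6 were measured on both arrays, and 1 lay above 0 and 5 below, with a median of -0.66 (-0.40 after loess). Col2a1, the collagen of cartilage and vitreous, lay at 0.09, from 1950.4 to 2063. Col9a1, a collagen that coats type II fibrils, lay at -0.91 with probes at -1.38 and -0.44. Col9a2 lay at -0.36, from 1424 to 1097 (-0.48 after loess). Acan, aggrecan, lay at -0.66 on dim signals of 105.7 and 66.3. Col11a1 lay at -0.65 on 42.8 and 27.1, and at 0.24 after loess. A spike-in RNA that read 82.3 in control differed by -1.12, and the technical part of the differences of dim genes was not tested. The 1 gene at least 2-fold lower was Col11a2 at -1.65, on dim signals of 89.5 and 28.2. It was short of 2-fold after quantile normalization (-0.94), normexp (-0.77) and under array medians (-0.57). Col9a3 and Comp were above background on the control array alone, and Matn1 and Hapln1 on neither.

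Sox2, Sox11, Sox8 and Sox9, the members with the largest differences under the reported scaling, are also genes of retina, neurons and glia. Sox3 and Sox4, also described above as neural factors, lay at 0.26 and 0.27, Sox12 at 0.13, and Sox1 and Sox5 below 0. Most markers of retina and neurons lay above 0. Of 13 markers of retina and neurons 12 were measured, 11 above 0 and 1 below, with a median of 0.54 and 1 at least 2-fold higher. Pou4f2, a factor of retinal ganglion cells, was highest at 1.34, and Isl1 and Nefl lay at 0.99 and 0.95. The summed signal of the 12 (brightest probe of each) was 7231 in control and 10201 in knockout lens, against 1763 and 2396 for the SoxC genes and 128 and 209 for the SoxE genes. The part of these cells in the Sox differences was not tested, and more cells of a type cannot be told apart from more RNA per cell in such samples.

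Among 5 markers of Müller glia and astrocytes 3 lay above and 2 below 0 with a median of 0.28. Slc1a3, a glutamate transporter, was highest at 0.61 and Gfap lowest at -0.57, and the summed signal was 2109 and 2094. The 6 pigment cell markers all lay below 0, with a median of -0.39 and summed signals of 5506 and 4957. The median was -0.09 for 5 vessel markers, -0.14 for 3 macrophage markers and 0.24 for 4 measured mesenchyme markers, with summed signals of 2139 and 1927, 901 and 903, and 980.2 and 1051. Of those, Col1a1 was 2.06-fold higher at 31.2 and 63.8, a difference of 1.04 that was 0.46 after normexp and 0.92 when only measured probes set the 75th percentile. Prrx1 was 2.20-fold lower at 37.4 and 16.8, a difference of -1.14 that was -0.01 after loess, 0.20 after quantile normalization, -0.36 after normexp, -0.06 under array medians and -0.95 with no filter on dim probes. The other 3 mesenchyme markers were above background on 1 array only. Dcn and Lum, proteoglycans of connective tissue, were not well above background in control. Dcn read 22.2 in control and 157.9 in knockout lens, a 7.18-fold higher signal, and Lum was at least 2.39-fold higher. Twist1 was at least 2.05-fold lower, from 25.1 in control, below the 54.8 of the spike-in RNA that was at least 4.42-fold lower. With no filter on dim probes the median of the mesenchyme list was 0.50.

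**Figure D4:**
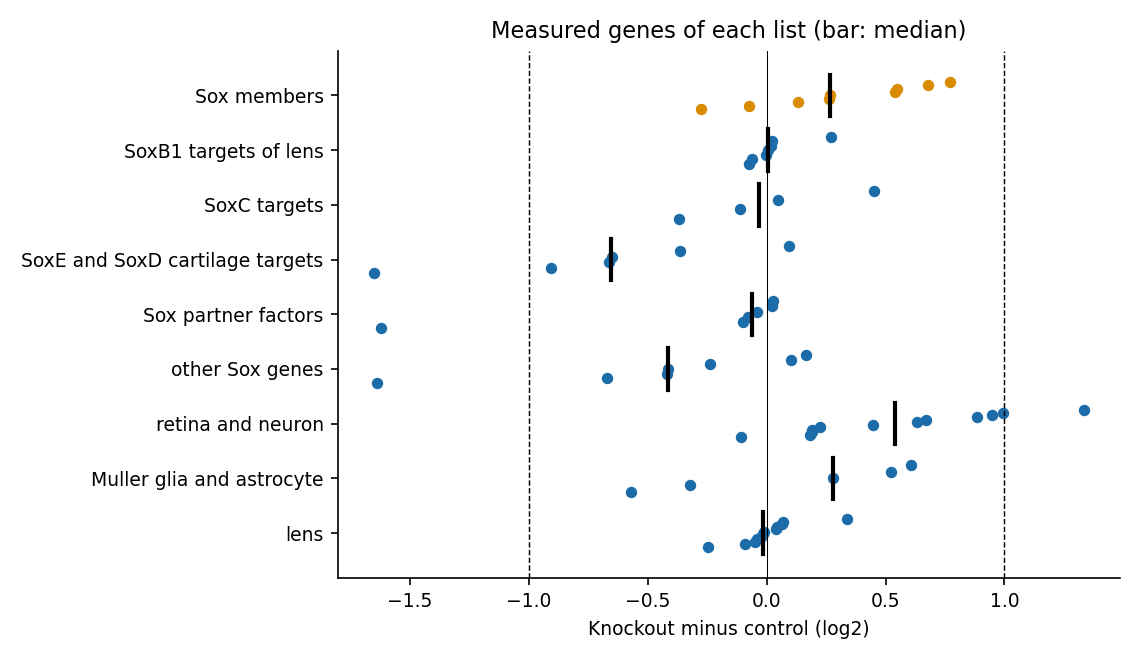
Difference (knockout minus control, log2) of each measured gene of the Sox members (orange) and of 8 other lists (blue), with black bars at list medians and dashed lines at 2-fold. The Sox members have a median of 0.27, the retina and neuron markers 0.54 and the cartilage targets -0.66.

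The Sox differences were compared over 9 other settings of scaling, background correction and probe choice. Relative to the median of all genes in each setting, Sox2 lay between 0.41 and 0.71 and Sox11 between 0.30 and 0.70. Sox8 ran from 0.28 to 1.31 and Sox9 from 0.37 to 1.09. Sox3 stayed between 0.16 and 0.42 and Sox4 between 0.11 and 0.45, and Sox12 ran from 0.09 to 0.69. Sox1 lay between -0.37 and -0.11, below the median of all genes in each setting. Sox5 ran from -1.11 to -0.03, and its lowest value came from letting the probe that was not above background into the mean.

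**Figure D5:**
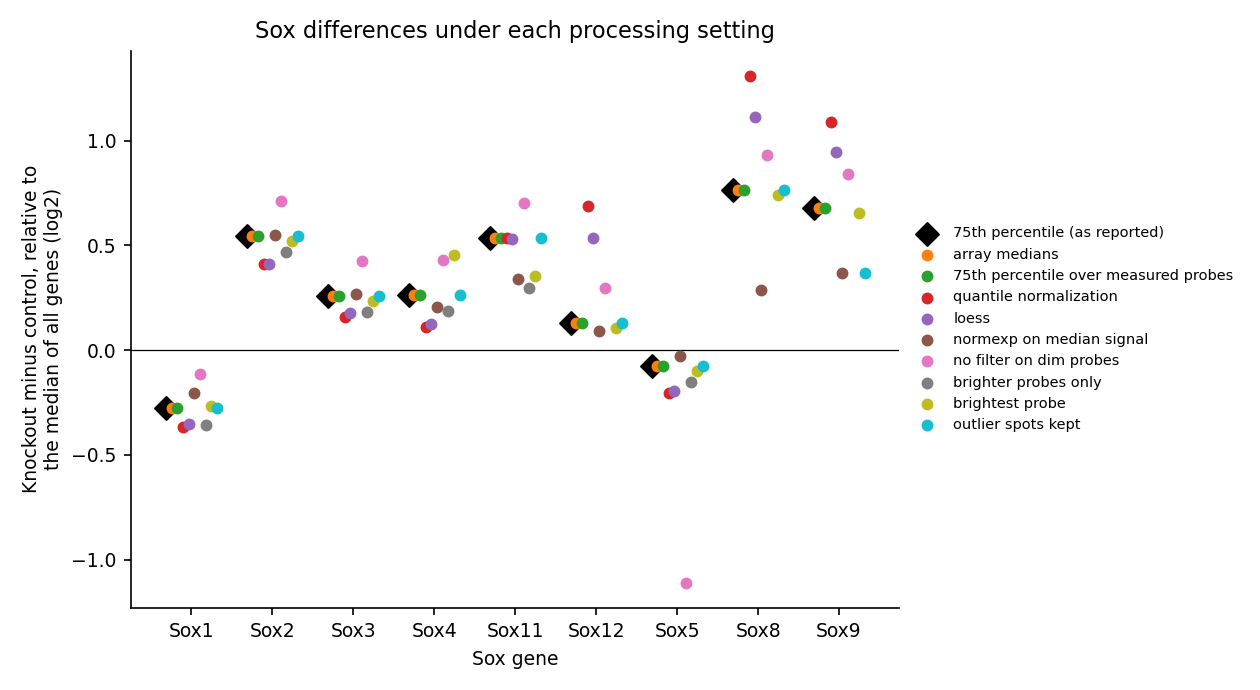
Difference of each measured Sox gene (log2) minus the median of all genes, under the reported scaling (black diamonds) and 9 other settings (coloured circles). Sox1 and Sox5 lie below 0 and the other genes above 0 in each setting shown.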

How the data were processed

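Per the file headers, the arrays were read with Agilent Feature Extraction 10.7.3.1, on a layout annotated to mm9. The deposited values are single-spot intensities on a linear scale, background-subtracted by that software, with no scaling between arrays recorded. Flags for background, outliers and controls are other values deposited by the authors.

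Control spots were removed, as were positions with an outlier flag on 1 or both arrays. From each spot's log2 signal the array's 75th percentile over spots was subtracted. The spots of each probe were then averaged, and a gene took the mean of its measured probes (over 50% of spots well above background on both arrays). Probes were named through unversioned RefSeq accessions (GRCm38.p6); 27235 of 55681 probes had a symbol. With 1 array per genotype, 2-fold stood in for a test. Spot noise came from 281 probes printed at least 5 times. Steps were tested on simulated data. Quantile normalization, loess and normexp (offset 50) used limma 3.58.1.

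Members and lists were chosen with earlier results of these data known. All members are named; of other lists, genes past 2-fold and up to 4 with the largest difference (3 for cell types), with others named for their role or chosen after values were seen. The files hold no mean-signal column, so normexp used median signals, a choice made after seeing the data. Some genes of the other lists are not reported here.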

Additional observations from a re-analysis of the deposited data

How the results depend on the processing

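The median difference of the Sox members, 0.27 as reported, was 1.35 under array medians, 0.47 under quantile normalization and 0.45 after loess. The count of members at least 2-fold higher went from 0 to 8, 2 and 1 under the same settings, and the count at least 2-fold lower went from 0 to 1 with no filter on dim probes, where Sox5 includes a probe below background. Over all genes, 143 were at least 2-fold higher as reported, against 8767 under array medians, 774 under quantile normalization, 446 after loess, 72 after normexp, 290 with no filter and 79 over brighter probes only. The count at least 2-fold lower was 839 as reported and 100, 233, 273, 100, 4479 and 46 in that order. Array medians shift every gene by 1.08 by construction, and the filters change which genes are counted. The cause of the other changes was not tested.

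Brighter probes only gave no value for Sox8, Sox9 or Sox12. Normexp on mean signals, planned at first, was not run. No paired analysis was possible because each genotype had 1 array, which also leaves no array to omit. Signal over background limits Sox6, Sox12, the second Sox5 probe and the size of the Sox8 and Sox9 differences.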
